A study of Mus musculus with 12 samples.

Results

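Cardiac muscle shortens when myosin of the thick filament pulls on actin of the thin filament, and each of these proteins comes in several isoforms made from separate genes. In the adult mouse ventricle the fast heavy chain alpha-MyHC, from Myh6, and cardiac actin, from Actc1, predominate, while the slow heavy chain beta-MyHC, from Myh7, and skeletal actin, from Acta1, belong to the fetal heart and return under pressure load. The ventricular light chains come from Myl2 and Myl3, and the atrial ones from Myl7 and Myl4. The 10 genes described here were picked by symbol in the table of 55401 genes: the heavy chain genes Myh6, Myh7 and Myh7b, the light chain genes Myl2, Myl3, Myl4 and Myl7, and the actin genes Acta1, Actc1 and Acta2. All 10 passed the filter on low counts that kept 15764 genes.

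RNA sequencing was done on left ventricle of mice aged 15 weeks in 4 groups of 3 libraries. Prkca encodes protein kinase C alpha, and the mutant carried T497A in it. The groups were the T497A mutant after transverse aortic constriction (TAC), the same mutant after a sham operation, wild type (WT) mice after TAC, and WT mice after sham. TAC narrows the aorta and loads the ventricle with pressure. It was set with a 27-gauge needle at 10 weeks of age, and tissue was taken 5 weeks later. The series title refers to CRISPR base editing, but the labels used here state neither zygosity nor strain for the substitution, nor that each library is a separate animal. P-values therefore measure the spread between these libraries, which may be partly technical.

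Totals ran from 36862004 to 46898344 counts per library, of which the 10 genes took between 3.61% and 4.86%. The labels call the cell type cardiomyocyte, but they describe no sorting, and markers of other cells were present. A list of 9 fibroblast and myofibroblast markers summed to between 1262 and 1741 CPM (counts scaled to library size with TMM factors) in T497A TAC libraries and between 890 and 1257 CPM in T497A sham libraries. The same sum lay between 2585 and 2905 CPM in WT TAC libraries and between 871 and 1045 CPM in WT sham libraries. Mitochondrially encoded genes took between 19.6% and 20.9% of counts in WT TAC libraries, and between 24.6% and 30.9% in the other libraries. In such bulk samples, fewer cells of a type and less RNA per cell cannot be told apart.

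The gene pair behind the heavy chain switch lies in tandem on chromosome 14, minus strand (GRCm38): Myh6 at positions 54941921 to 54966927 and Myh7 at 54970684 to 54994626. The coding sequences are so alike that 13.7% of all distinct 75-base runs in Myh6 transcripts also occur in Myh7 transcripts, and 75 bases is the read length stated in the labels. The longest identical run is coding, spans an intron in each gene and is 245 bases long. It is shown because a read that lies wholly within it could come from either gene. In Myh6 it runs within chr14:54948327-54948725 and in Myh7 within chr14:54974947-54975347, on the minus strand.
Myh6 and Myh7 shared run: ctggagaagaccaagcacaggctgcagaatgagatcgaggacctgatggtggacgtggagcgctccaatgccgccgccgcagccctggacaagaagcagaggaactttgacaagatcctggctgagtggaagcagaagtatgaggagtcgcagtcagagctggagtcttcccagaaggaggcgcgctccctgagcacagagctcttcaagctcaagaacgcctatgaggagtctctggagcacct
How the authors' counting treated reads that match 2 genes is not given in the sources used here, so a low Myh7 level beside abundant Myh6 is uncertain by the reads that may have been assigned wrongly. The sarcomeric actin genes share far fewer runs, with 0.394% of Acta1 runs and 0% of Actc1 runs found in any other gene.

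Each heavy chain gene also holds a microRNA in an intron, Mir208a in Myh6, Mir208b in Myh7 and Mir499 in Myh7b. They are shown because their mature strands share most of the seed, bases 2 to 8, here in capitals; sequences are from RefSeq on GRCm38.p6.
miR-208a-3p: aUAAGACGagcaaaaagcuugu
miR-208b-3p: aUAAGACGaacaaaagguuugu
miR-499-5p: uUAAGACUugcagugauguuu
The seed of miR-208a-3p and miR-208b-3p is the same, UAAGACG, and that of miR-499-5p is UAAGACU.

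The stretch of 250 bases before the RefSeq transcription start is shown for both heavy chain genes and both sarcomeric actin genes because these pairs divide the isoform shares given below. Capitals mark matches, on either strand, to CATTCC (the MCAT element, which TEAD factors bind) and to the CArG box, which serum response factor binds; the motifs do not overlap each other in these windows. Sequences are from RefSeq on GRCm38.p6, given on the minus strand, at chr14:54994627-54994876 for Myh7, chr14:54966608-54966857 for Myh6, chr8:123894776-123895025 for Acta1 and chr2:114052876-114053125 for Actc1.
Myh7: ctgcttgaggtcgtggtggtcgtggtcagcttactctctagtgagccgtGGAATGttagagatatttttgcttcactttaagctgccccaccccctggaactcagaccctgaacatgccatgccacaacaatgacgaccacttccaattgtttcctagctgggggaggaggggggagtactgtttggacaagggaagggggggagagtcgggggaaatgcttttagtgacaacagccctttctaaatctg
Myh6: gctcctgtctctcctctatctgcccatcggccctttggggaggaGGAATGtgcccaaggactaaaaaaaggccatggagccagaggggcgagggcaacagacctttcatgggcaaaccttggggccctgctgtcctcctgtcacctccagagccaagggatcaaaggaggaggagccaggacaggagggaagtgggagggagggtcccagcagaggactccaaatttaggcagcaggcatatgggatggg
Acta1: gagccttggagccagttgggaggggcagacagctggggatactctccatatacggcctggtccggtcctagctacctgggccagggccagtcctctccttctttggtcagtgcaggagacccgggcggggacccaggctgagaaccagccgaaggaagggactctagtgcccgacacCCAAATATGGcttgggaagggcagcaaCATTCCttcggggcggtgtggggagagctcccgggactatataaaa
Actc1: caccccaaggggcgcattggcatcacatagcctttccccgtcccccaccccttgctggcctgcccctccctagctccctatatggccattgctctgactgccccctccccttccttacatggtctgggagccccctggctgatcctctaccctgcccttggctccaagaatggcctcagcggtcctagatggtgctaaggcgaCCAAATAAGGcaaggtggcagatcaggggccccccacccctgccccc
Acta1 held 1 MCAT match, with its first base at -46 relative to the start, and 1 CArG match at -73. Actc1 held 1 CArG match at -47 and no MCAT match. Myh7 and Myh6 each held 1 MCAT match more distant from the start, that of Myh6 at -206, and no CArG match; a second Myh7 window in the same table, with its start further downstream, held neither. Among 32851 promoter windows of 300 bases in that table, 14.7% held an MCAT match and 1.63% a CArG match. These are matches of letters and not measured binding. The distances hold for the RefSeq starts only. In GENCODE M21, which gave the gene positions, the Myh6 and Actc1 windows lie within the bounds of the genes.

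Myh7 rose after TAC in WT hearts, while Myh6 fell. Myh7 was at 456, 772 and 1218 CPM in T497A TAC libraries and at 113, 154 and 491 CPM in T497A sham libraries, against 2493, 2380 and 2932 CPM in WT TAC libraries and 532, 191 and 395 CPM in WT sham libraries. The WT TAC libraries lay above all others with no overlap, and within the mutant the lowest TAC library lay just under the highest sham library. In WT the TAC effect was 2.80 ± 0.66 on the log2 scale (SE, 6.98-fold, adjusted p = 0.0151 by edgeR's quasi-likelihood test with Benjamini-Hochberg adjustment over all genes tested). Without WT sham replicate 3 the adjusted p was 0.0532 at a log2 change of 2.85, so that library decides on which side of the threshold of 0.05 the result falls. In T497A the estimate was 1.69 ± 0.63 and did not pass (adjusted p = 0.347). Without T497A sham replicate 3, the highest of its group, that estimate was 2.61 (adjusted p = 0.375).

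After TAC, Myh7 was 1.67 ± 0.63 log2 units lower in T497A than in WT, and the groups did not overlap, but the difference did not pass the threshold (adjusted p = 0.148). The test of whether the TAC effect itself differed between genotypes gave -1.11 ± 0.87 (adjusted p = 0.588), and -0.19 without T497A sham replicate 3. With T497A TAC replicate 1 and T497A sham replicate 3 left out, a choice made after the data were seen and described with the atrial genes below, that interaction estimate turned to 0.10.

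Myh6 was at 18910, 17772 and 17624 CPM in T497A TAC libraries and at 22127, 17778 and 23173 CPM in T497A sham libraries, against 13517, 17978 and 15748 CPM in WT TAC libraries and 28887, 20074 and 23129 CPM in WT sham libraries. WT TAC lay below WT sham with no overlap, while the mutant groups overlapped. The change was -0.22 ± 0.14 in T497A (adjusted p = 0.601) and -0.61 ± 0.14 in WT (adjusted p = 0.00654). The interaction estimate of 0.39 ± 0.20 did not pass (adjusted p = 0.338).

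Myh7b, an ancient slow-type heavy chain gene whose protein output in heart is low, was expressed at a small fraction of the other levels. It had 22.3, 17.9 and 20.1 CPM in T497A TAC libraries and 19.4, 22.8 and 21.8 CPM in T497A sham libraries, against 17.4, 19.4 and 12.9 CPM in WT TAC libraries and 22.4, 23.8 and 19.4 CPM in WT sham libraries. WT TAC lay below WT sham by -0.40 ± 0.14 log2 units, with adjusted p = 0.0485, close to the threshold. That call held under 9 of 19 alternatives. Leaving out any 1 of T497A sham replicates 1, 2 and 3, T497A TAC replicate 3, WT sham replicates 1 and 2 and WT TAC replicates 1 and 3 ended it, with adjusted p up to 0.192.

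**Figure D1:**
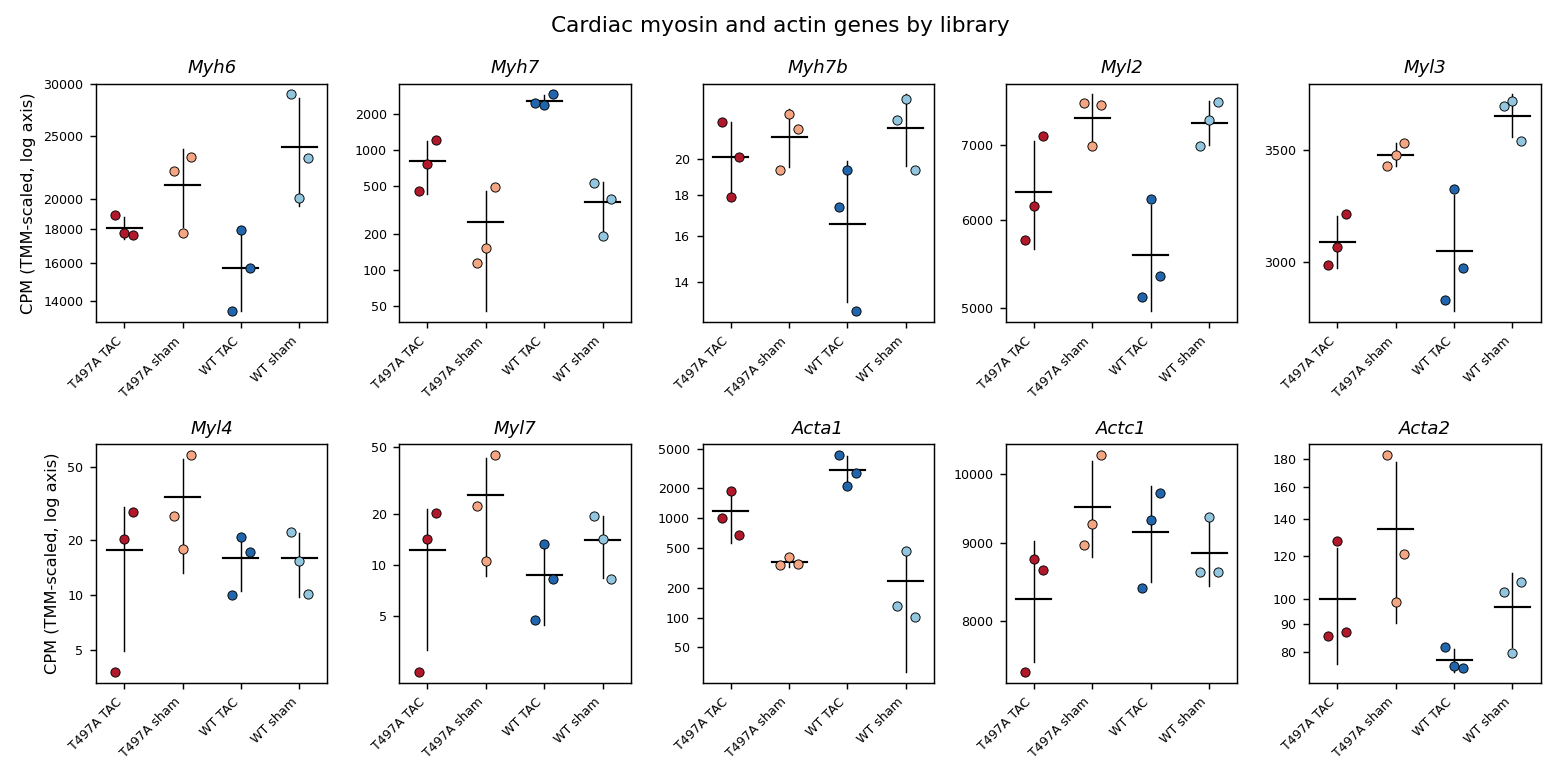
Level of each of the 10 genes in every library, in TMM-scaled CPM on log axes that differ between panels; points are libraries, horizontal bars are means and vertical bars are SD over 3 libraries. Myh7 and Acta1 stand highest in the 3 WT TAC libraries, and Myl4 and Myl7 share the same low and high libraries in the T497A groups.

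As a share of the counts of both heavy chain genes, Myh7 made up 4.33% ± 2.06 in T497A TAC libraries and 1.15% ± 0.82 in T497A sham libraries (SD, n = 3 each). In WT it made up 14.3% ± 2.28 after TAC and 1.48% ± 0.47 after sham (SD, n = 3 each). By library the Myh7 share was 2.35%, 4.16% and 6.46% in T497A TAC and 0.51%, 0.856% and 2.07% in T497A sham, against 15.6%, 11.7% and 15.7% in WT TAC and 1.81%, 0.943% and 1.68% in WT sham. TAC lay above sham without overlap in both genotypes. A 95% Wilson interval on any of these shares was at most 0.166 percentage points wide, which covers counting error only, so nearly all of the spread lies between libraries.

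The Myh7 to Myh6 ratio was 2.81 log2 units higher after TAC than after sham averaged over both genotypes, and a two-sided exact permutation test within genotypes gave p = 0.005, the smallest that 400 arrangements allow (adjusted over 4 shares, p = 0.01). The TAC effect on that ratio was 2.09 log2 units in T497A and 3.52 in WT, and the difference between them did not pass (-1.43, exact permutation p = 0.235, adjusted p = 0.333). After TAC the ratio was 1.99 log2 units lower in T497A than in WT, for which 3 against 3 libraries cannot give an exact p below 0.1, the value found.

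The summed level of both heavy chain genes moved less than the shares. It was 18917 ± 416 CPM in T497A TAC and 21279 ± 2985 CPM in T497A sham (SD, n = 3 each), against 18349 ± 2193 CPM in WT TAC and 24402 ± 4639 CPM in WT sham (SD, n = 3 each). The mean gain of Myh7 in WT was smaller than the mean loss of Myh6 in these units.

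Myh7 shares its locus with RNAs whose counts went the other way. Mhrt, an antisense long noncoding RNA that starts between the genes and overlaps Myh7, is known from mouse hearts to be lost under pressure load. Its annotation (GRCm38, chromosome 14, 54968678 to 54974349, plus strand) has 1214 exonic bases, of which 39.9% lie opposite Myh7 exons. Of the distinct 75-base runs in Myh6 transcripts 1.91% also occur in Mhrt on either strand, and of those in Myh7 transcripts 2.30%. How such reads were counted, and whether by strand, is not given in the sources used here. Mhrt counts may therefore include reads of the abundant heavy chain genes, and their part was not tested. Mhrt had 11.7, 11.2 and 11.0 CPM in T497A TAC libraries and 16.6, 12.7 and 15.2 CPM in T497A sham libraries, against 7.23, 7.65 and 6.76 CPM in WT TAC libraries and 15.7, 14.2 and 13.2 CPM in WT sham libraries. The TAC libraries lay below the sham libraries in both genotypes, and the T497A TAC libraries above the WT TAC libraries, without overlap. Mhrt fell after TAC in WT (-0.996 ± 0.115 on the log2 scale, adjusted p = 5.48e-05), and after TAC it was 0.65 ± 0.12 log2 units higher in T497A than in WT (adjusted p = 0.00502). In T497A the TAC change was -0.40 ± 0.11 (adjusted p = 0.204), and the interaction of 0.60 ± 0.16 did not pass (adjusted p = 0.0765).

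Reads in the Mir208b hairpin, a 77-base feature within an intron of Myh7, numbered 16, 13 and 32 in T497A TAC libraries and 41, 34 and 58 in T497A sham libraries, against 7, 13 and 9 in WT TAC libraries and 69, 44 and 35 in WT sham libraries. They fell in WT (-2.43 ± 0.43 on the log2 scale, adjusted p = 0.00106) while Myh7 rose. In T497A the change was -1.19 ± 0.40 (adjusted p = 0.264). These libraries were made from mRNA, so the counts are of longer RNA that covers the hairpin and not of the mature microRNA shown above, and whether counting used strand is not given in the sources used here. Mir499 and Mir208a had too few counts to be tested, with Mir499 at 1 count in all 12 libraries together.

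**Figure D2:**
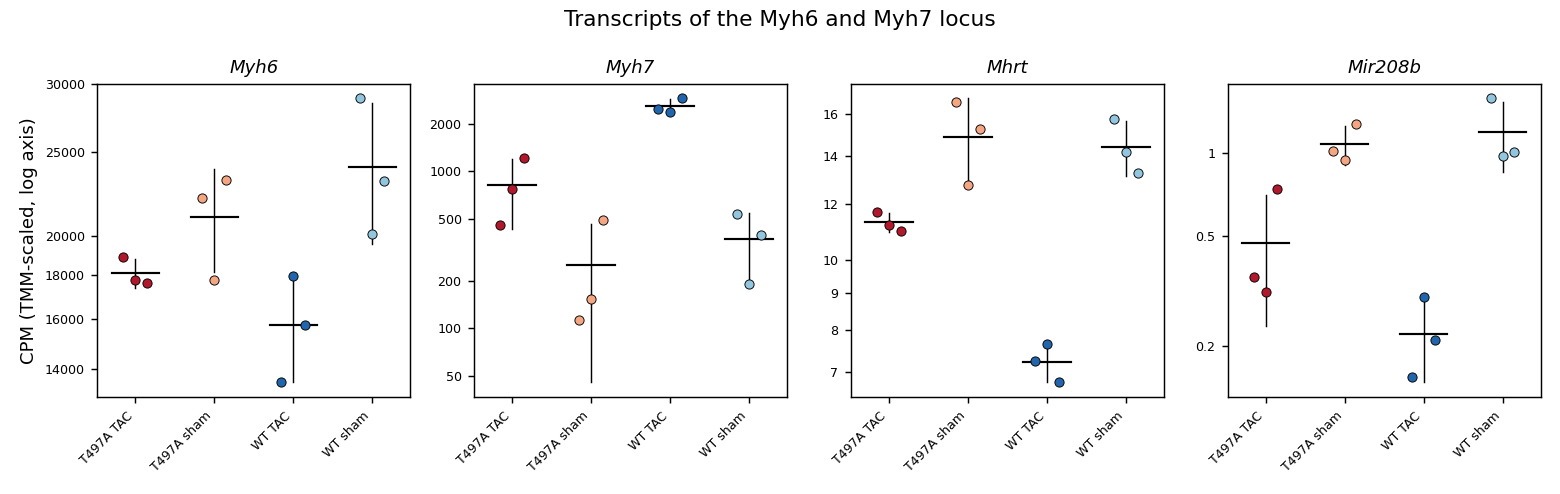
TMM-scaled CPM on log axes of Myh6, Myh7, the antisense RNA Mhrt and the Mir208b hairpin in every library; points are libraries, horizontal bars means and vertical bars SD over 3 libraries. Myh7 was highest in WT TAC, at 2380 to 2932 CPM, where Mhrt was lowest, at 6.76 to 7.65 CPM.

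Acta1, which encodes the actin of skeletal muscle and of the fetal heart, showed the widest TAC change among the 10 genes in WT. It was at 1002, 1871 and 671 CPM in T497A TAC libraries and at 335, 405 and 342 CPM in T497A sham libraries, against 4299, 2105 and 2819 CPM in WT TAC libraries and 131, 473 and 101 CPM in WT sham libraries. TAC lay above sham in both genotypes and WT TAC above T497A TAC, each without overlap. The TAC effect in WT was 3.71 ± 0.68 on the log2 scale (13.1-fold, adjusted p = 0.00503), and without WT sham replicate 2, the highest WT sham library, it was 4.73. In T497A the estimate was 1.71 ± 0.63 (3.28-fold, adjusted p = 0.346) and did not pass the threshold.

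After TAC, Acta1 was 1.38 ± 0.63 log2 units lower in T497A than in WT (adjusted p = 0.226), and after sham it was 0.62 ± 0.62 log2 units higher (adjusted p = 1). Subtracting the WT effect of TAC from the T497A effect gave -1.998 ± 0.88, with adjusted p = 0.302. Without WT sham replicate 2 the difference after sham was 1.63 (adjusted p = 0.999) and the difference in response -3.02 (adjusted p = 0.0689). Neither the difference after TAC nor the difference in response passed the threshold.

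Actc1, the gene of the main actin of adult cardiac muscle, passed in no comparison. It was at 7414, 8789 and 8641 CPM in T497A TAC libraries and at 8973, 9271 and 10280 CPM in T497A sham libraries, against 8419, 9321 and 9717 CPM in WT TAC libraries and 8616, 9362 and 8625 CPM in WT sham libraries. The WT groups overlapped, with a TAC estimate of 0.05 ± 0.09 (adjusted p = 0.746). In T497A the TAC libraries lay below the sham libraries, by -0.20 ± 0.09 log2 units, which did not pass (adjusted p = 0.384).

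Acta1 made up 12.2% ± 5.18 of the counts of both sarcomeric actin genes in T497A TAC libraries and 3.67% ± 0.49 in T497A sham libraries (SD, n = 3 each), against 24.9% ± 7.97 in WT TAC and 2.49% ± 2.02 in WT sham libraries (SD, n = 3 each). By library the share was 11.9%, 17.6% and 7.21% in T497A TAC and 3.59%, 4.19% and 3.22% in T497A sham, against 33.8%, 18.4% and 22.5% in WT TAC and 1.498%, 4.81% and 1.16% in WT sham. Every TAC library exceeded every sham library of its genotype. The Acta1 to Actc1 ratio was 2.87 log2 units higher after TAC averaged over genotypes (exact permutation p = 0.005, adjusted p = 0.01).

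The TAC effect on the Acta1 to Actc1 ratio was 1.79 log2 units in T497A and 3.95 in WT, a difference of -2.17 with an exact permutation p = 0.04, which did not pass after adjustment over 4 shares (adjusted p = 0.16). Without WT sham replicate 2 the difference was -2.81 with an adjusted p of 0.02, so that 1 library decides on which side of the threshold it falls. The summed level of both actin genes was 9463 ± 1130 CPM in T497A TAC and 9868 ± 678 CPM in T497A sham (SD, n = 3 each), against 12227 ± 699 CPM in WT TAC and 9103 ± 634 CPM in WT sham (SD, n = 3 each). In WT the mean of the summed heavy chain counts was lower after TAC than after sham, and that of the summed actin counts was higher; these sums were not tested.

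**Figure D3:**
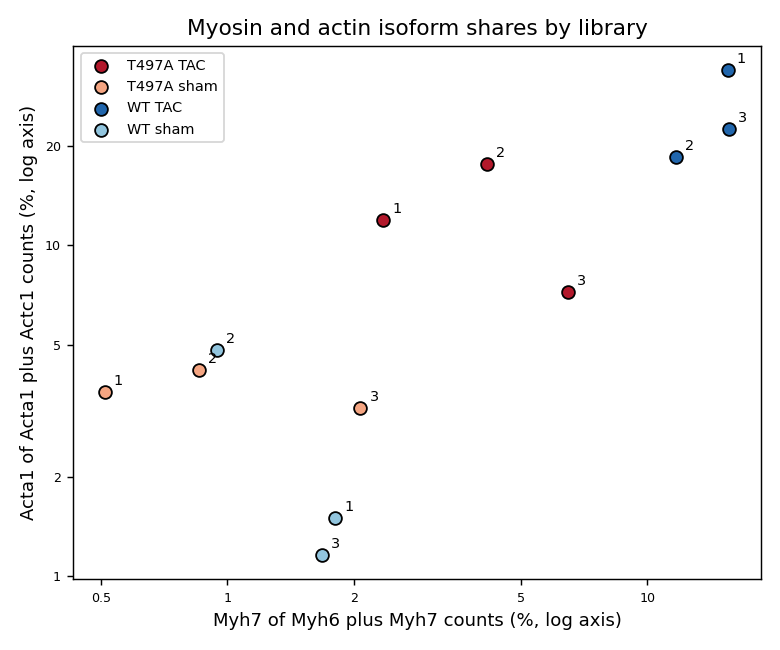
Share of Acta1 among Acta1 and Actc1 counts against share of Myh7 among Myh6 and Myh7 counts, in percent on log axes, 1 point per library with its replicate number beside it. WT TAC libraries stand at the upper right, with Myh7 shares of 11.7% to 15.7%, and T497A TAC libraries lie between them and the sham libraries on both axes.

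The actin and heavy chain shares ordered the libraries alike in some groups and not in others. Among T497A TAC libraries, replicate 3 had the highest Myh7 share (6.46%) and the lowest Acta1 share (7.21%). Among WT TAC libraries, replicate 2 was lowest for both (11.7% for Myh7 and 18.4% for Acta1). Among WT sham libraries, replicate 2 had the lowest Myh7 share (0.943%) and the highest Acta1 share (4.81%). With 3 libraries a group this is a description only.

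Acta1 is also the actin of skeletal muscle, so markers of that tissue were read beside it. A list of 11 skeletal muscle markers summed to between 58.5 and 119 CPM in T497A TAC and between 58.3 and 90.9 CPM in T497A sham libraries, against 143 to 183 CPM in WT TAC and 64.6 to 76.7 CPM in WT sham libraries. In WT after TAC 2 of its 9 tested genes rose and none fell. Most of that sum came from Mybpc2, a fast-type myosin binding protein gene, and Myl1, a fast skeletal essential light chain gene, while Tnnc2 was at 0 counts in 9 of 12 libraries. Myh4, the gene of the fastest skeletal heavy chain, had 0.85, 0.05 and 0.05 CPM in T497A TAC libraries and 10.6, 10.7 and 0.75 CPM in T497A sham libraries, against 1.23, 15.6 and 0.19 CPM in WT TAC libraries and 9.56, 5.23 and 0.06 CPM in WT sham libraries. Myl1 had 24.9, 56.7 and 21.01 CPM in T497A TAC libraries and 34.5, 26.6 and 34.8 CPM in T497A sham libraries, against 111, 54.9 and 88.6 CPM in WT TAC libraries and 36.3, 25.9 and 37.0 CPM in WT sham libraries. Within both TAC groups Myl1 ordered the libraries as Acta1 did, while Myh4 was highest in WT TAC replicate 2, where Acta1 was lowest of its group. The part of skeletal muscle in the Acta1 levels was not tested.

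The third actin gene, Acta2, encodes smooth muscle actin, which vessel walls and activated fibroblasts contain. Acta2 had 85.5, 128 and 87.0 CPM in T497A TAC libraries and 183, 98.7 and 121 CPM in T497A sham libraries, against 81.7, 75.4 and 74.9 CPM in WT TAC libraries and 103, 79.8 and 107 CPM in WT sham libraries. The T497A TAC libraries lay above the WT TAC libraries, while TAC and sham overlapped within each genotype and the sham groups overlapped each other. None of its tests passed the threshold: the TAC estimate was -0.42 ± 0.23 in T497A (adjusted p = 0.531) and -0.32 ± 0.23 in WT (adjusted p = 0.359), and T497A against WT after TAC gave 0.37 ± 0.23 (adjusted p = 0.382). The fibroblast and myofibroblast sum given above was highest in WT TAC libraries, and 6 of its 9 genes rose in WT after TAC. WT TAC was also the group with the lowest mean of Acta2, though its replicate 1 (81.7 CPM) lay above WT sham replicate 2 (79.8 CPM). A list of 14 other smooth muscle and pericyte markers summed to between 1618 and 1769 CPM in T497A TAC and 1704 and 1780 CPM in T497A sham, against 1310 to 1439 CPM in WT TAC and 1666 to 1843 CPM in WT sham. In WT after TAC 1 of these 14 genes rose and 3 fell, where 12.3% of all genes tested rose and 12.6% fell. Most of the lower sum in WT TAC came from Abcc9, a potassium channel subunit gene that heart muscle also expresses; without it, a choice made after its values were seen, the other 13 genes summed to between 1105 and 1187 CPM in T497A TAC and 1081 and 1211 CPM in T497A sham, against 983 to 1097 CPM in WT TAC and 1087 to 1113 CPM in WT sham. Their part in the Acta2 levels was not tested.

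The ventricular light chain genes Myl2 and Myl3 fell after TAC in WT, by less than the heavy chain gene Myh6 in log2 estimate. Myl2 encodes the regulatory light chain of the ventricle, whose phosphorylation raises contractile force. It was at 5757, 6178 and 7132 CPM in T497A TAC libraries and at 7640, 6997 and 7606 CPM in T497A sham libraries, against 5117, 6266 and 5347 CPM in WT TAC libraries and 6988, 7369 and 7656 CPM in WT sham libraries. WT TAC lay below WT sham without overlap, and the T497A groups overlapped. The change was -0.22 ± 0.09 in T497A (adjusted p = 0.369) and -0.40 ± 0.09 in WT (adjusted p = 0.0071).

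Myl3, the ventricular essential light chain gene, was at 2988, 3065 and 3206 CPM in T497A TAC libraries and at 3426, 3480 and 3535 CPM in T497A sham libraries, against 2848, 3321 and 2976 CPM in WT TAC libraries and 3721, 3749 and 3548 CPM in WT sham libraries. TAC lay below sham in both genotypes without overlap. The change was -0.17 ± 0.07 in T497A (adjusted p = 0.338) and -0.27 ± 0.07 in WT (adjusted p = 0.0105). In WT the adjusted p was 0.0503 without WT TAC replicate 1. For neither Myl2 nor Myl3 did the interaction pass (0.17 ± 0.13 with adjusted p = 0.56 for Myl2, and 0.10 ± 0.10 with adjusted p = 0.678 for Myl3).

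The summed level of other ventricular muscle genes was also lower in WT TAC libraries, though not the level of every gene. A list of 9 ventricular cardiomyocyte markers that holds none of the 10 genes summed to between 16041 and 17594 CPM in T497A TAC libraries and between 14954 and 20341 CPM in T497A sham libraries. It summed to between 11866 and 14638 CPM in WT TAC libraries and between 16834 and 19690 CPM in WT sham libraries. The WT groups did not overlap and the T497A groups did. In WT after TAC 3 of the 9 genes fell and none rose, and in T497A none passed. The list median in WT was -0.0072 on the log2 scale. The largest parts of the sum were Ttn, with means of 6350.5 CPM in WT TAC and 9324 CPM in WT sham, and Ryr2, with 1753 and 3179 CPM. Actn2, Myoz2, Irx4 and Nkx2-5 had higher means in WT TAC (2288, 1057, 27.6 and 30.3 CPM) than in WT sham (1948.5, 1007.5, 26.1 and 30.2 CPM). The means of the other genes of the list were lower in WT TAC. Tnni3 and Ttn of this list are described again below. The part of the muscle content of the tissue in the falls of Myh6, Myl2 and Myl3 was not tested.

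**Figure D4:**
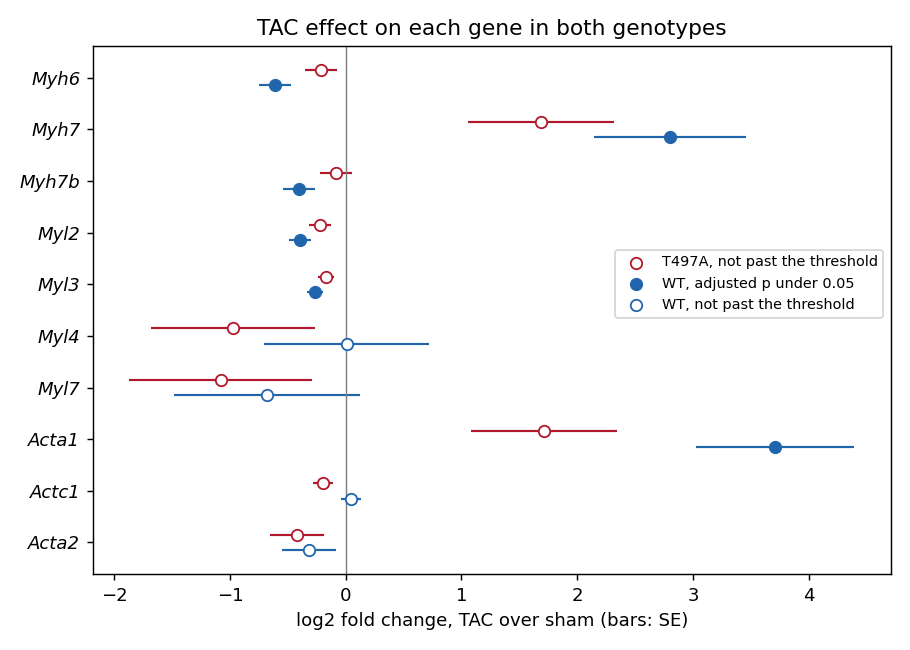
TAC effect on each of the 10 genes as log2 fold change of TAC over sham, in T497A (red) and WT (blue), with bars of 1 SE from edgeR's quasi-likelihood fit; filled points passed an adjusted p of 0.05. Acta1 at 3.71 and Myh7 at 2.80 in WT stand farthest to the right, and no T497A point is filled.

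The atrial light chain genes Myl4 and Myl7, which the ventricle expresses before birth and atria keep, were low and very uneven between replicates. Myl4 had 3.82, 20.2 and 28.7 CPM in T497A TAC libraries and 27.0, 17.9 and 58.3 CPM in T497A sham libraries, against 10.1, 20.9 and 17.3 CPM in WT TAC libraries and 22.3, 15.4 and 10.1 CPM in WT sham libraries. Myl7 had 2.32, 14.3 and 20.4 CPM in T497A TAC libraries and 22.5, 10.6 and 44.8 CPM in T497A sham libraries, against 4.69, 13.4 and 8.23 CPM in WT TAC libraries and 19.5, 14.3 and 8.25 CPM in WT sham libraries. The groups overlapped in every comparison, and no test of either gene passed the threshold in any of the 6 comparisons.

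T497A TAC replicate 1 was lowest and T497A sham replicate 3 highest for both. Sln, the sarcolipin gene, a marker of atrial muscle in the adult mouse heart, followed the same order at the extremes, with 0.223, 2.37 and 2.08 CPM in T497A TAC and 2.24, 1.83 and 7.04 CPM in T497A sham, against 0.833, 1.99 and 1.35 CPM in WT TAC and 2.40, 2.19 and 1.51 CPM in WT sham. Over the 12 libraries, Myl4 and Myl7 CPM, taken as log2(CPM + 1), had a Pearson r of 0.96 and a Spearman rho of 0.90, and the r was 0.88 without those 2 libraries. Sln had an r of 0.93 with Myl4 and 0.95 with Myl7, which became 0.75 and 0.92 without them; Sln was chosen after its values were seen. The points share library and depth, so these values are given as a description.

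A list of 10 atrial markers with no member of the present set summed to between 94.0 and 134 CPM in T497A TAC and 127 and 155 CPM in T497A sham, against 92.9 to 140 CPM in WT TAC and 115 to 138 CPM in WT sham. In WT after TAC 1 of its 9 tested genes rose and 2 fell, and none passed in T497A. The largest parts of the sum were Angpt1, Kcna5, Dkk3 and Nr2f2, with means over all libraries of 41.4, 21.4, 21.3 and 18.0 CPM. Sln had a mean of 2.17 CPM and so made up little of the sum. By library the sum was highest in T497A sham replicate 3, at 155 CPM. The sum was lowest in WT TAC replicate 1, at 92.9 CPM, and next lowest in T497A TAC replicate 1, at 94.0 CPM. Bmp10, an atrial ligand gene, was at 0 counts in 9 of 12 libraries and at 4 counts or fewer in the others. Its part in the light chain values was not tested. Myl4 made up 0.557% ± 0.39 of Myl3 and Myl4 counts in T497A TAC and 0.972% ± 0.58 in T497A sham, against 0.519% ± 0.15 in WT TAC and 0.43% ± 0.16 in WT sham (SD, n = 3 each).

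**Figure D5:**
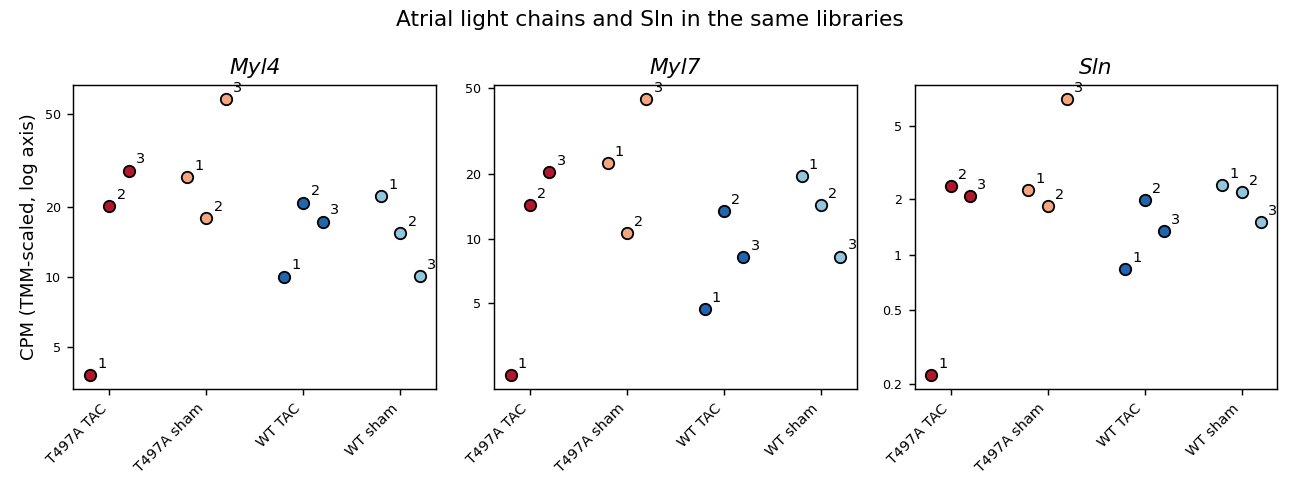
TMM-scaled CPM on log axes of the atrial light chain genes Myl4 and Myl7 and of Sln, 1 point per library with its replicate number beside it. T497A TAC replicate 1 is lowest and T497A sham replicate 3 highest in all 3 panels.

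Counted together, in WT 2 of the 10 genes rose after TAC (Myh7 and Acta1) and 4 fell (Myh6, Myl2, Myl3 and Myh7b). Of all genes tested, 12.3% rose and 12.6% fell in that comparison. Those shares are also the background for the counts after TAC in WT in the lists of other genes. The 6 genes did not overlap between the WT groups, against 42.2% of all genes tested. In T497A none of the 10 genes passed after TAC, where 0.0634% of genes rose and 0.0507% fell (18 genes in all, with 1837 at an unadjusted p under 0.05). There 3 did not overlap (Acta1 above; Myl3 and Actc1 below), against 15.4% of all genes tested.

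Between the genotypes after TAC none of the 10 genes passed, although 4.64% of all genes tested were higher and 4.06% lower in T497A than in WT. Without overlap were 3 of them (Acta2 above; Myh7 and Acta1 below), against 28% of all genes. After sham none passed and Myl3 did not overlap, against 0.0254% of genes higher, 0% lower and 8.21% without overlap; 477 genes had an unadjusted p under 0.05. The interaction called none of them, against 0.894% of genes higher and 0.679% lower. Averaged over genotypes, TAC raised 2 (Myh7 and Acta1) and lowered 3 (Myh6, Myl2 and Myl3), against 11.2% of genes raised and 11.2% lowered. The median change over the 10 genes was -0.21 in T497A and -0.29 in WT on the log2 scale, and over all genes tested it was 0.01 in each. DESeq2 and limma-voom, run as alternatives, also called none of the 10 genes after TAC in T497A, between the genotypes after either surgery or for the interaction.

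To compare genes with each other, levels were divided by exon length, which for some genes includes retained introns. Per kilobase, Actc1 was highest in every group, with 5118 ± 467 CPM per kb in T497A TAC, 5876 ± 423 in T497A sham, 5657 ± 411 in WT TAC and 5481 ± 265 in WT sham. Myl2 and Myh6 followed in every group; Myl2 had 3259 ± 361 CPM per kb and Myh6 2691 ± 105 in T497A TAC, against 2860 ± 312 and 2341 ± 332 in WT TAC. Myl2 and Myh6 lay close together in WT sham, at 3763 ± 172 and 3573 ± 665 CPM per kb, within their spread. In WT TAC, Acta1 reached 2002 ± 729 CPM per kb, a spread wide enough to take in the means of Myl3, at 1491 ± 120, and of Myh6 (SD, n = 3 for every group).

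Myh7 stayed lower per kilobase, with 94.6 ± 44.5 CPM per kb in T497A TAC and 29.3 ± 24.1 in T497A sham, against 302 ± 33.8 in WT TAC and 43.2 ± 19.9 in WT sham. Its annotated exons cover 8616 bases, against 6135 bases in the transcript that holds the shared run, so its value per kilobase depends on the length used. Acta2 was at 45.6 ± 10.9 CPM per kb in T497A TAC and 35.2 ± 1.72 in WT TAC. Myl7, Myl4 and Myh7b came last in WT TAC, with 14.9 ± 7.40, 3.47 ± 1.19 and 2.49 ± 0.50 CPM per kb, and the order of Myl4 and Myh7b is within their spread.

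The genes whose pattern was most like that of a member over all 12 libraries, among 9364 genes with a mean of at least 5 CPM and leaving out the 10 genes themselves and predicted genes, were found by Pearson r of log2(CPM + 1). For Myh7 they were Prmt2 (0.96), Zfp697 (0.95) and Kalrn (0.94). For Acta1 they were Itgbl1 (0.97), Ufm1 (0.97) and Ppp1r9b (0.97), and none of the 3 is shared with Myh7. For Myl4 they included Rpl7a (0.89) and Lsm2 (0.85), and for Acta2 they were Smarcal1 (0.91), Atrnl1 (0.88) and Sox7 (0.86). The 12 points share groups and libraries, so these are descriptions with no test.

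Among other myosin heavy chain genes, 2 non-muscle forms and a perinatal one rose after TAC in WT. Of 10 such genes 7 were tested, of which 3 rose and none fell in WT, and none passed in T497A; the list median was -0.14 in T497A and 0.50 in WT on the log2 scale. Myh10, the gene of non-muscle myosin IIB, had 56.3, 54.7 and 55.6 CPM in T497A TAC and 51.2, 49.1 and 46.0 CPM in T497A sham, against 93.0, 71.4 and 93.1 CPM in WT TAC and 43.1, 49.4 and 50.2 CPM in WT sham. It rose in WT by 0.85 ± 0.10 (adjusted p = 5.48e-05), and after TAC it was lower in T497A than in WT by -0.63 ± 0.10 (adjusted p = 0.00257). Myh9, the gene of non-muscle myosin IIA, rose in WT by 0.50 ± 0.14 (adjusted p = 0.0231), a call lost without any 1 of WT sham replicates 1 and 3 and WT TAC replicates 1 and 3 (adjusted p from 0.0699 to 0.0834). Myh8, the perinatal skeletal heavy chain gene, had 0.04, 0.10 and 0.37 CPM in T497A TAC, against 1.23, 1.15 and 1.12 CPM in WT TAC and 0.02, 0.16 and 0 CPM in WT sham, and it rose after TAC in WT (adjusted p = 0.00566).

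Of 8 other light chain genes 7 were tested, and 4 rose in WT after TAC (Myl12a, Myl6, Myl6b and Myl1) with none falling, none passed in T497A, and 2 were lower in T497A than in WT after TAC (Myl12a and Myl6). Myl12a, a non-muscle regulatory light chain gene, had 165, 218 and 179 CPM in T497A TAC and 258, 248 and 268 CPM in WT TAC, against 157, 188 and 170 CPM in WT sham. It rose in WT by 0.59 ± 0.10 (adjusted p = 0.000627) and was lower in T497A than in WT after TAC by -0.46 ± 0.10 (adjusted p = 0.0102, or 0.0533 without WT TAC replicate 3). Myl6, the essential light chain gene of non-muscle and smooth muscle myosin, rose in WT by 0.59 ± 0.11 (adjusted p = 0.00164) and was lower in T497A than in WT after TAC by -0.40 ± 0.11 (adjusted p = 0.0415), a call that held under 10 of 19 alternatives. Myl6b rose in WT by 1.01 ± 0.28 (adjusted p = 0.0182), lost without any 1 of WT sham replicates 1 and 2 and WT TAC replicates 2 and 3 (adjusted p from 0.0587 to 0.0753). Among 3 other actin genes, Actb, a cytoplasmic actin gene, rose in WT by 0.61 ± 0.20 (adjusted p = 0.0482), a call that held under 10 of 19 alternatives.

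Of 8 genes for light chain kinases and the myosin phosphatase, 1 rose and 3 fell in WT after TAC, and none passed in T497A. Mylk4, a kinase gene of the light chain kinase family, had 317, 279 and 350 CPM in T497A TAC and 619, 303 and 513 CPM in T497A sham, against 105, 170 and 143 CPM in WT TAC and 615, 360 and 514 CPM in WT sham. It fell in WT (-1.83 ± 0.30 on the log2 scale, adjusted p = 0.00233), and the WT groups were far apart. After TAC it was 1.18 ± 0.30 log2 units higher in T497A than in WT (adjusted p = 0.0417), a call that held under 9 of 19 alternatives. Mylk3, the cardiac light chain kinase gene and the kinase gene with the highest mean CPM, did not pass in any comparison (smallest adjusted p = 0.175). Ppp1cb, a phosphatase catalytic subunit gene, fell in WT (-0.25 ± 0.07 on the log2 scale, adjusted p = 0.0243), a call lost without any 1 of WT sham replicates 1 and 3 and WT TAC replicates 1 and 2 (adjusted p from 0.0557 to 0.107). Mylk, the smooth muscle and non-muscle light chain kinase gene, fell averaged over genotypes (-0.23 ± 0.06 on the log2 scale, adjusted p = 0.019), and without WT TAC replicate 3 or without both libraries of extreme Sln the adjusted p was 0.0532 to 0.0668.

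Among the regulators of the thin filament, 11 of 12 troponin and tropomyosin genes were tested; 3 rose and 2 fell in WT after TAC. Tnni3, cardiac troponin I, was at 2250, 2150 and 2450 CPM in T497A TAC and 2945, 2775 and 2959 CPM in T497A sham, against 1808, 2097 and 1719 CPM in WT TAC and 2927, 2895 and 2900 CPM in WT sham. TAC lay below sham in both genotypes without overlap, and the change in WT was -0.63 ± 0.08 (adjusted p = 8.81e-05). After TAC it was 0.28 ± 0.08 log2 units higher in T497A than in WT (adjusted p = 0.0387), a call that held under 8 of 19 alternatives. Tnnt2, cardiac troponin T, fell in WT (-0.31 ± 0.08 on the log2 scale, adjusted p = 0.00975). Tpm3, a tropomyosin gene, rose in WT by 0.60 ± 0.16 (adjusted p = 0.0186), a call lost without any 1 of WT sham replicates 1 and 3 and WT TAC replicates 1 and 3 (adjusted p from 0.0559 to 0.0736).

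Of 9 tested thick filament partners, 1 rose in WT after TAC. Mybpc2 had 42.3, 61.7 and 35.3 CPM in T497A TAC and 35.8, 27.9 and 19.4 CPM in T497A sham, against 69.1, 68.8 and 52.3 CPM in WT TAC and 23.4, 33.4 and 25.5 CPM in WT sham. It rose by 1.21 ± 0.27 in WT (adjusted p = 0.00898). Myom1, a myomesin gene of the M band, was lower in T497A than in WT after TAC by -0.44 ± 0.11 (adjusted p = 0.023), lost without T497A TAC replicate 1 or WT TAC replicate 1 or 3 (adjusted p up to 0.117). Ttn, the titin gene and the one with the highest mean CPM in this list, did not pass in any comparison (smallest adjusted p = 0.0671).

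Of 10 genes for myosin folding and actin filament length, 5 fell and 1 rose in WT after TAC, and none passed in T497A. Tmod4, a tropomodulin gene, fell in WT (-1.11 ± 0.15 on the log2 scale, adjusted p = 0.00018). Lmod3, a leiomodin gene that promotes actin filament growth, had 143, 138 and 143 CPM in T497A TAC and 137, 151 and 161 CPM in T497A sham, against 107, 104 and 85.4 CPM in WT TAC and 142, 156 and 155 CPM in WT sham. It fell in WT (-0.61 ± 0.09 on the log2 scale, adjusted p = 0.000231) and was higher in T497A than in WT after TAC by 0.52 ± 0.09 (adjusted p = 0.00378). Unc45b, a myosin chaperone gene, fell in WT (-0.42 ± 0.08 on the log2 scale, adjusted p = 0.00141). Lmod2, the leiomodin gene with the highest mean CPM in the list, did not pass (smallest adjusted p = 0.276).

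Of 20 genes for regulators of myosin and actin transcription, 6 fell and 1 rose in WT after TAC, 1 fell in T497A, and 3 were higher in T497A than in WT after TAC. Tbx5, a T-box factor gene of heart development, had 25.5, 28.0 and 27.7 CPM in T497A TAC and 37.4, 37.4 and 36.5 CPM in T497A sham, against 20.4, 20.8 and 22.3 CPM in WT TAC and 33.7, 35.1 and 34.2 CPM in WT sham. All 4 groups were tight, with TAC below sham in both genotypes. It fell in T497A (-0.45 ± 0.07 on the log2 scale, adjusted p = 0.0337) and in WT (-0.70 ± 0.07, adjusted p = 1.72e-05), and the T497A call held under 7 of 19 alternatives. After TAC it was 0.36 ± 0.07 higher in T497A than in WT (adjusted p = 0.00711).

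Mef2a, a MADS-box factor gene, fell in WT (-0.56 ± 0.08 on the log2 scale, adjusted p = 0.000225) and was 0.39 ± 0.08 higher in T497A than in WT after TAC (adjusted p = 0.00928, or 0.0515 without T497A TAC replicate 3). Sox6, whose protein represses slow-fiber genes in skeletal muscle and Myh7 among them, fell in WT (-0.51 ± 0.10 on the log2 scale, adjusted p = 0.00275). After TAC it was 0.60 ± 0.10 higher in T497A than in WT (adjusted p = 0.00443). Its levels were 25.6, 21.3 and 23.5 CPM in T497A TAC and 24.4, 19.9 and 23.3 CPM in T497A sham, against 14.3, 16.1 and 16.1 CPM in WT TAC and 20.4, 21.9 and 23.9 CPM in WT sham, so WT TAC stood apart below the others. Tead1, the gene with the highest mean CPM in the list and one whose protein binds the MCAT element, rose averaged over genotypes by 0.22 ± 0.06 (adjusted p = 0.0173), with adjusted p from 0.0502 to 0.0864 without WT sham replicate 3, without WT TAC replicate 3 or without both libraries of extreme Sln.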

How the data were processed

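RNA from left ventricle was sequenced in 12 libraries as single-end reads of 75 cycles, per the labels. The authors deposited raw counts per gene, made with Trim Galore 0.6.4, STAR 2.7.3a, featureCounts of Subread 1.6.3 and the mm10 build, per the submitters' processing notes, which also name limma 3.50.3; neither the annotation release nor strand use is given in the sources used here. Totals were 36862004 to 46898344 counts. Groups came from the labels, and all libraries carry 1 batch date.

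From the deposited counts, edgeR 4.0.16 in R 4.3.3 kept 15764 genes (filterByExpr, minimum count 10), scaled with TMM and fitted all 12 libraries by group with the quasi-likelihood test; p-values were adjusted by Benjamini-Hochberg over all genes tested, with a threshold of 0.05. The biological coefficient of variation was 17.24%. Shares were tested on log2 count ratios by two-sided exact permutation, with 400 arrangements within genotypes (smallest p 0.005) and 20 between 3 and 3 libraries (smallest p 0.1). Intervals cover counting error only. Replicates of a group differed by 21.9 to 60.3 times counting noise (chi-square per degree of freedom), so none was counted as a repeat. Positions and exon lengths came from GENCODE M21 (GRCm38), which matched 15751 of the tested IDs. The fit was tested on simulated data. Alternatives used limma 3.58.1 and DESeq2 1.42.0, other scaling and filters, and leaving out each library.

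From each list of related genes the text names up to 3 called genes with the smallest adjusted p and the gene with the highest mean CPM; likeness used log2(CPM + 1) and a mean of at least 5 CPM, and 1 gene that this rule picks is not reported here. Myl1, Myh4, Abcc9, Sln, Bmp10, Tnnc2, Ryr2, Actn2, Myoz2, Irx4, Nkx2-5, Angpt1, Kcna5, Dkk3 and Nr2f2 were added to the text once their values had been seen. The members and lists were chosen with earlier results of these data known. T497A is a point substitution, so counts per gene do not check the genotype.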

Additional observations from a re-analysis of the deposited data

Results flagged for a closer look

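The TAC effect was compared between the genotypes by a test of the difference itself, the interaction term of edgeR's quasi-likelihood fit. That test called 248 of the 15764 genes tested (0.894% with a higher effect in T497A and 0.679% with a lower one), and none of the 10 genes described. Among the related genes that the text names by rule it called 2, Myh10 and Lmod3. For Myh10 the effect in T497A minus the effect in WT was -0.66 ± 0.14 on the log2 scale (adjusted p = 0.0341). That call was lost under 10 of 18 alternatives, with adjusted p from 0.0546 to 0.109, among them leaving out any 1 of T497A sham replicates 1, 2 and 3, T497A TAC replicates 1 and 3, WT sham replicates 1 and 3, and WT TAC replicates 1 and 3. For Lmod3 the difference was 0.53 ± 0.12 (adjusted p = 0.0481). It was lost under 11 of 18 alternatives, with adjusted p from 0.0506 to 0.123, among them leaving out any 1 of the same libraries or WT sham replicate 2. In both genes the 3 T497A TAC libraries lay apart from the 3 WT TAC libraries.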

How the results depend on the processing

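No paired analysis was possible because every title carries the same replicate number. The counts of the 10 genes called stayed within 1.5 times under every alternative run, at 4 to 6 after TAC in WT. Some counts called in the lists of other genes moved more. For light chain kinases and the phosphatase the count after TAC in WT ran from 1 to 4. Leaving out T497A TAC replicate 1 and T497A sham replicate 3, chosen after seeing the data, turned the direction of uncalled estimates: Myh7 interaction 0.10, Myl2 between genotypes after sham -0.00388, Myl4 interaction 0.12, Myl4 averaged TAC effect 0.0664, Myl4 TAC effect in T497A 0.12, Myl7 interaction 0.75 and Myl7 TAC effect in T497A 0.0644. Limma-voom turned Myl4 between genotypes after TAC to -0.25 and its TAC effect in WT to -0.0144. Leaving out 1 library moved the Acta2 interaction between -0.32 and 0.19, and the Myl7 interaction between -0.98 and 0.25. Between genotypes after sham it moved Myh7b between -0.12 and 0.0261 and Myl2 between -0.0223 and 0.0525. Between genotypes after TAC it moved Myl3 between -0.0279 and 0.0848, Myl4 between -0.43 and 0.61, and Myl7 between -0.0914 and 0.99. The Myl4 TAC effect in WT moved between -0.23 and 0.33. Among log2 ratios behind the shares, Myl4 between genotypes after TAC moved between -0.80 and 0.60 and its TAC effect over both genotypes between -0.65 and 0.0545. For Myl7 the ratio's interaction moved between -1.30 and 0.11, its difference after TAC between -0.58 and 0.83 and its TAC effect in WT between -0.69 and 0.00905. The cause was not tested. Averaged over genotypes, Myh6 had an adjusted p of 0.0524 with no low-count filter, Acta2 passed under DESeq2 (0.0367) and without T497A sham replicate 2 (0.0491), and Myh7b passed with no low-count filter (0.021) and without WT TAC replicate 2 (0.0372).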
